A study of Mus musculus with 11 samples.

Results

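*Sox11* is represented by 1 transcript, uc007nfn.2, among the 63244 UCSC transcripts counted in ribosome-associated RNA of mouse hippocampal excitatory neurons. It was chosen because its level differed between sleep deprived and undisturbed mice in these same libraries, so that difference is described here without a test. The libraries came from male CaMKIIα-Cre:RiboTag mice aged 2 to 3 months, in which Cre driven by the CaMKIIα promoter switches on a hemagglutinin-tagged Rpl22, a protein of the large ribosomal subunit, in forebrain excitatory neurons. All mice of both groups carried these alleles. The mice were either kept awake by gentle handling for 5 h from lights on (SD, 6 libraries, replicates 1, 2, 3, 4, 6 and D) or left to sleep (NSD, 5 libraries, replicates 2, 3, 4, 5 and B), and each library pooled the hippocampi of 2 mice. Tagged ribosomes were immunoprecipitated from whole hippocampus, so fewer expressing cells and less RNA per cell cannot be told apart, and a change in ribosome association cannot be told apart from a change in transcript level.

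Sox11 is a transcription factor of the SoxC group, whose members (Sox4, Sox11 and Sox12) bind DNA through a high mobility group (HMG) box. In the nervous system SoxC factors act as transcriptional activators during neuronal differentiation, and in the adult hippocampus Sox11 is best known from newly generated granule neurons of the dentate gyrus, where it precedes maturation. It is also known from injured sensory neurons that regrow axons. Fos, a subunit of the AP-1 transcription factor, and *Homer1a* (uc007rlb.3), the short transcript of the gene for the postsynaptic scaffold Homer1, served as references for genes that respond to neuronal activity.

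*Sox11* lies on the minus strand of chromosome 12 from 27334264 to 27342574 (mm10, GENCODE vM21). It has 1 exon of 8311 bases, of which 1185 are coding, 166 form the 5′ untranslated region and 6960 form the 3′ untranslated region, so most of the exon on which reads could be counted is noncoding. The nearest annotated gene, the pseudogene *Gm47860*, was 67697 bases away. No annotated gene shared bases with *Sox11*. Reads that fell on several transcripts were kept out of the deposited counts. *Fos* lies on the plus strand of the same chromosome, from 85473890 to 85477273.

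The 250 bases before the RefSeq start of *Sox11* and of *Fos* are shown because these genes were the one described and its immediate early reference. They were taken from RefSeq (GRCm38.p6), *Sox11* from chr12:27342719-27342968 on the minus strand and *Fos* from chr12:85473640-85473889 on the plus strand. The *Sox11* window stops at 27342719, upstream of the exon described above, whose 5′ end is at 27342574. The bases between them were not searched, and distances below are from the RefSeq start. Both are written 5′ to 3′, and capitals mark the motif matches described next.
Sox11: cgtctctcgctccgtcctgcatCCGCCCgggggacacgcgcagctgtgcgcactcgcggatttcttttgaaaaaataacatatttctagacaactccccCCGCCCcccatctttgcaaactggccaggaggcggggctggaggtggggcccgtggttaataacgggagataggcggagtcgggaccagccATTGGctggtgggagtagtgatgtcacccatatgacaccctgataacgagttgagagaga
Fos: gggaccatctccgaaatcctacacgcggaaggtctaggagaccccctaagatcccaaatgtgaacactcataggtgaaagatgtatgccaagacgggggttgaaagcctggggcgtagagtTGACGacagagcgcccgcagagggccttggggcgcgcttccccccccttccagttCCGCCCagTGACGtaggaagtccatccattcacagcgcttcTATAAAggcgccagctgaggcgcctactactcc
Each motif was searched on both strands. The *Sox11* promoter held 1 CCAAT box (CCAAT, read as ATTGG on this strand), 60 to 56 bases before the start. It also held 2 GC boxes (GGGCGG, read as CCGCCC), 228 to 223 and 151 to 146 bases before the start. CCAAT was present in 33.8% and GGGCGG in 32.7% of the 32851 mouse promoters of this length, so these matches are common. The *Fos* promoter held 2 cyclic AMP response element (CRE) half-sites (TGACG), 129 to 125 and 66 to 62 bases before the start, 1 GC box at 74 to 69 and a TATA box (TATAAA) at 33 to 28. The half-site occurred in 17.8% and TATAAA in 12.4% of all promoters, and neither sequence occurred in the *Sox11* window. The full CRE (TGACGTCA, which contains the half-site, 1.55% of promoters), the AP-1 motif (TGANTCA, 6.75%), the core bound by Sox factors (ACAAAG, 16.5%) and the CArG box (1.47%) were not found in either window. The GC content was 58.0% for *Sox11* and 58.4% for *Fos*, against a median of 52.4%. These are matches of letters and were not tested as binding sites.

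*Sox11* was present in every library and higher in every SD library than in every NSD library. Its raw counts were 1632, 1780, 1716, 1900 and 1634 in NSD replicates 2, 3, 4, 5 and B. In SD replicates 1, 2, 3, 4, 6 and D they were 2578, 3147, 2715, 2977, 3393 and 3151. At these depths counting error alone was between 1.72% and 2.48% of the count, below the spread between libraries.

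Counts were divided by library size and by the upper-quartile factor of each library to give scaled counts (CPM, reads in proportion to library size). On that scale the NSD libraries held 67.5, 76.9, 66.6, 79.6 and 68.0 CPM, a mean of 71.7 ± 6.05 (s.d., n = 5). The SD libraries held 87.6, 133.1, 104.7, 119.6, 121.6 and 113.2 CPM, a mean of 113.3 ± 15.7 (s.d., n = 6). SD replicate 1 was the lowest SD library and NSD replicate 5 the highest NSD library, and the first was 1.10 times the second. In all 30 pairs of 1 SD and 1 NSD library *Sox11* was higher in the SD library, with ratios from 1.10 to 2.00 and a median of 1.58. The ratio of the group means was also 1.58, and the log2 fold change of the fit over all transcripts was 0.66 (standard error 0.10).

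The groups were separate under each of 3 scalings, and the width of the gap changed with the scaling. With TMM factors the NSD libraries spanned 67.9 to 76.4 CPM and the SD libraries 95.3 to 129.2 CPM. With library totals alone the NSD libraries spanned 67.6 to 74.2 CPM (72.1 ± 2.695) and the SD libraries 104.5 to 122.4 CPM (111.7 ± 6.42). All 30 pairs remained above 1 under each scaling, with ratios of 1.25 to 1.90 under TMM factors and 1.41 to 1.81 under totals alone. The coefficient of variation of *Sox11* within the SD group fell from 13.9% with upper-quartile factors to 5.74% with totals alone, and within the NSD group from 8.44% to 3.74%. SD replicate 1 was the lowest and SD replicate 2 the highest SD library under the 3 scalings. The order of the NSD libraries changed, with NSD replicate 5 highest under upper-quartile factors and NSD replicate 4 highest under totals alone.

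**Figure D1:**
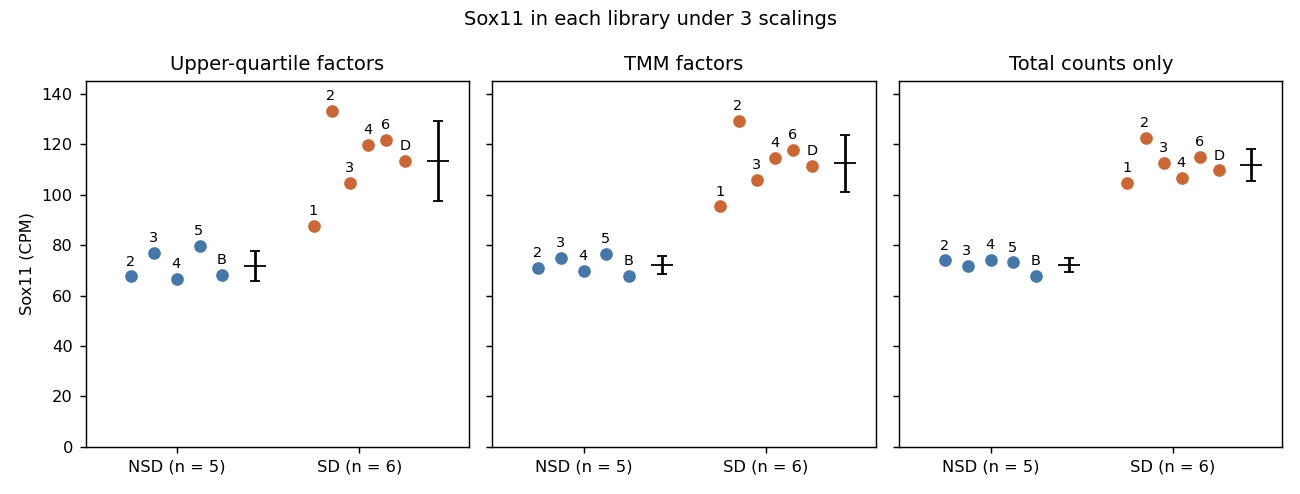
Sox11 CPM (vertical axis) in the 5 NSD and 6 SD libraries under upper-quartile factors, TMM factors and total counts only. Points are libraries marked with their replicate, and bars give the mean and standard deviation. The lowest SD library is above the highest NSD library in each panel, and the gap is narrowest with upper-quartile factors.

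Library depth, as reads counted on transcripts, ran from 22074914 to 29549339. NSD replicate 2 stood apart, with 12.3% of its reads not aligned to a single place against 5.88% to 6.23% in the others, and 27.6% of reads outside annotated transcripts against 9.97% to 21.1%. SD replicate 1 had the next highest share outside transcripts. Without NSD replicate 2 the *Sox11* log2 fold change was 0.64, and without SD replicate 1 it was 0.72. With the share of reads outside transcripts as a covariate it was 0.60. The labels give some replicates a number and others a letter. In the numbered libraries *Sox11* averaged 72.7 CPM in NSD (n = 4) and 113.3 CPM in SD (n = 5), and the lettered libraries, 1 per group, held 68.0 CPM (NSD B) and 113.2 CPM (SD D).

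Both references also had higher means in SD, and within SD the order of the libraries for each was not that of *Sox11*. *Fos* held 26.3, 14.8, 22.0, 33.8 and 13.2 CPM in NSD replicates 2, 3, 4, 5 and B (22.0 ± 8.49, s.d., n = 5). In SD replicates 1, 2, 3, 4, 6 and D it held 29.4, 54.3, 50.04, 43.7, 47.8 and 56.6 CPM (47.0 ± 9.79, s.d., n = 6). Its groups overlapped, since NSD replicate 5 was above SD replicate 1, and with totals alone they did not. The log2 fold change of *Fos* was 1.09 (standard error 0.20) and did not pass edgeR's quasi-likelihood test over all transcripts (Benjamini-Hochberg adjusted p, or false discovery rate (FDR), 0.0520). It passed in 13 of 24 alternatives, whose FDR ran from 2.12e-05 to 0.668, and passed without SD replicate 1 (edgeR FDR 0.00263) and without NSD replicate 5 (edgeR FDR 0.0313).

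*Homer1a* held 28.6, 29.9, 28.2, 33.9 and 28.9 CPM in the NSD libraries (29.9 ± 2.33, s.d., n = 5). In SD replicates 1, 2, 3, 4, 6 and D it held 49.5, 65.4, 58.4, 53.7, 39.5 and 41.1 CPM, a mean of 51.3 with a coefficient of variation of 19.5% (n = 6). Its groups did not overlap, and it passed the same test with a log2 fold change of 0.78 (standard error 0.12, edgeR FDR 0.0139). The call was lost without NSD replicate 4 (edgeR FDR 0.0655), without NSD replicate B (edgeR FDR 0.0994) and in the numbered libraries alone (edgeR FDR 0.203), and held in the other 21 of 24 alternatives. SD replicates 6 and D, its lowest SD libraries, were in the middle or upper part of the SD group for *Sox11*. The log2 fold change of *Sox11*, 0.66, stood beside 0.78 for *Homer1a* and 1.09 for *Fos*, and these differences were not tested. Its coefficient of variation within NSD (8.44%) was far below the 38.5% of *Fos* and near the 7.77% of *Homer1a*.

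Within the SD group, *Sox11* did not follow either reference beyond what 6 libraries can show. On log2 CPM the Pearson correlation of *Sox11* with *Fos* was 0.78 (n = 6, two-sided exact permutation p = 0.0847, adjusted over the 2 references p = 0.169) and the Spearman correlation was 0.371 (exact permutation p = 0.497). Without SD replicates 1 and D, the libraries farthest from the median of *Fos*, r was 0.289, and without SD replicate 1 alone it was 0.0429, so the relation rested on SD replicate 1, which was lowest for both genes. For *Homer1a* the Pearson correlation was 0.147 (n = 6, two-sided exact permutation p = 0.818, adjusted p = 0.818) and the Spearman correlation was 0.143 (exact permutation p = 0.803). Without SD replicates 6 and 2, the farthest for *Homer1a*, r was -0.0678, and without SD replicate 2 alone it was -0.350. Over the 11 libraries, each centred on its group mean, r was 0.484 for *Fos* (permutation p = 0.0986) and 0.252 for *Homer1a* (permutation p = 0.587). Apart from the checks that left libraries out of the SD group, a correlation was computed only over 6 or more libraries, so for the 5 NSD libraries the values alone are described. In them NSD replicate 5 was highest for *Sox11* and for both references, whereas NSD replicate 3, the next highest for *Sox11*, was next to lowest for *Fos*. For *Homer1a* the order of the 5 NSD libraries was that of *Sox11* (replicates 5, 3, B, 2 and 4) with upper-quartile factors, and it differed from that of *Sox11* with TMM factors and with totals alone.

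**Figure D2:**
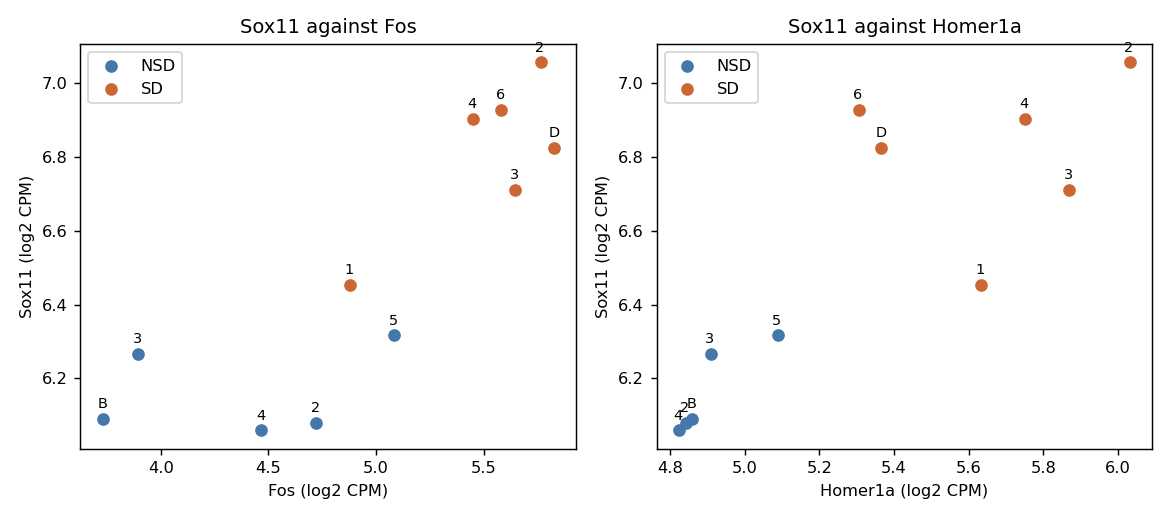
Sox11 (vertical axis, log2 CPM, upper-quartile factors) against Fos (left) and Homer1a (right) in the 11 libraries, coloured by group and marked with the replicate. Every SD library is above every NSD library on the Sox11 axis, with SD replicate 1 the lowest of them, and on the Fos axis SD replicate 1 lies to the left of NSD replicate 5.

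Of all transcripts, 29599 had a count in 5 or more libraries and were tested. Among them *Sox11* ranked 2541 by mean CPM in NSD, within the highest 8.58%. Ranks by CPM order reads per transcript and are not corrected for length. By log2 fold change *Sox11* ranked 1500 and *Fos* 544, since many transcripts with few counts have larger values. By the F statistic of the fit, which sets the change against the spread, *Sox11* ranked 7, *Homer1a* ranked 5 and *Fos* 17. The test called 15 of the 29599 transcripts at FDR 0.05 (0.0507%), 13 of them higher in SD (0.0439%) and 2 lower. With total counts alone, a scaling added after the data were seen, it called 271, of which 67 were lower and the others higher. Lower calls outnumbered higher ones when 1 count in 1 library sufficed (11 higher, 22 lower) and without SD replicate 2 (7 higher, 12 lower). No call is read for *Sox11*, which was chosen by this contrast.

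Every SD library was above every NSD library in 136 transcripts (0.459%) and below in 107 (0.361%). By the ratio of its lowest SD to its highest NSD library, *Sox11* ranked 37 of the 24674 transcripts with counts in every NSD library. *Homer1a* ranked 18, and *Fos*, whose groups overlapped, 934. Among the 3223 transcripts with a mean of at least 50 CPM, 17 (0.527%) had every SD library above every NSD library, and *Sox11* had the third widest gap. In this abundant set its log2 fold change ranked 4, after 0.86 and 0.78 for the *Slc44a5* transcripts uc008rul.1 and uc008ruk.1, of a choline transporter-like gene, and 0.75 for uc056yur.1, which has no name here. The next was *Nr4a1*, an activity-induced nuclear receptor, at 0.58. The spread of *Sox11* was ordinary for that set. The standard deviation of log2 CPM within groups was 0.18 for *Sox11* against a median of 0.18 over the set, and *Sox11* ranked 1575 from the lowest.

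**Figure D3:**
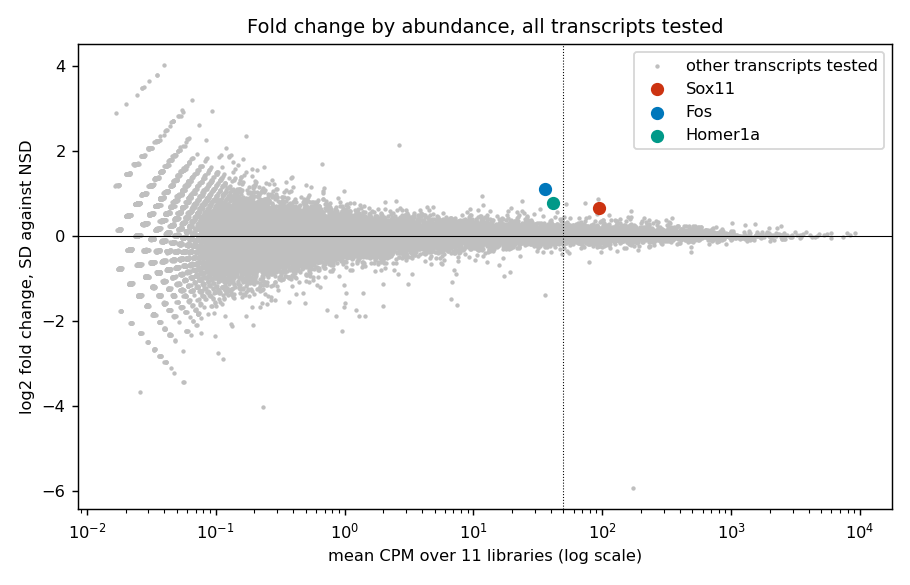
Log2 fold change of SD against NSD (vertical axis) by mean CPM over the 11 libraries (horizontal log axis) for the 29599 transcripts tested, with Sox11, Fos and Homer1a coloured. The dotted line marks 50 CPM, to the right of which Sox11, at 0.66, has the fourth highest value.

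The transcripts most like *Sox11* were ranked by the Pearson correlation of log2 CPM over the 11 libraries, among 6466 transcripts with a mean of at least 10 CPM. This likeness includes the difference between the groups, shares library scaling, and is given as a description. The highest named transcript was *2410131K14Rik* (r = 0.986, rank 1). It was followed by the *Slc44a5* transcript uc008ruk.1 (0.980), *Slc25a38*, a mitochondrial glycine carrier (0.975), the *Slc44a5* transcript uc008rul.1 (0.974) and *Cdkn1b* (uc009ela.2), from the gene for a cyclin-dependent kinase inhibitor (0.974). The median over all 6466 was 0.433. *Fos* ranked 236 (r = 0.853) and *Homer1a* ranked 264 (r = 0.843) of the 6466, both above that median. These ranks were computed with upper-quartile factors only.

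After each library was centred on its group mean, other named transcripts were nearest. *Pyroxd1*, an oxidoreductase gene, ranked 1 (r = 0.994). Others near it were the lipoprotein lipase gene *Lpl* (0.976), *Vps36* (0.975) and *Ccdc137* (0.972). With upper-quartile factors, however, most transcripts moved with *Sox11* inside the groups, and the median r over the 6466 transcripts was 0.845. The median was 0.669 with TMM factors and 0.0806 with totals alone. *Fos* ranked 5706 by this measure with upper-quartile factors, 4776 with TMM factors and 353 with totals alone (r = 0.592). The within-group likeness of single transcripts to *Sox11* therefore changed with the scaling.

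**Figure D4:**
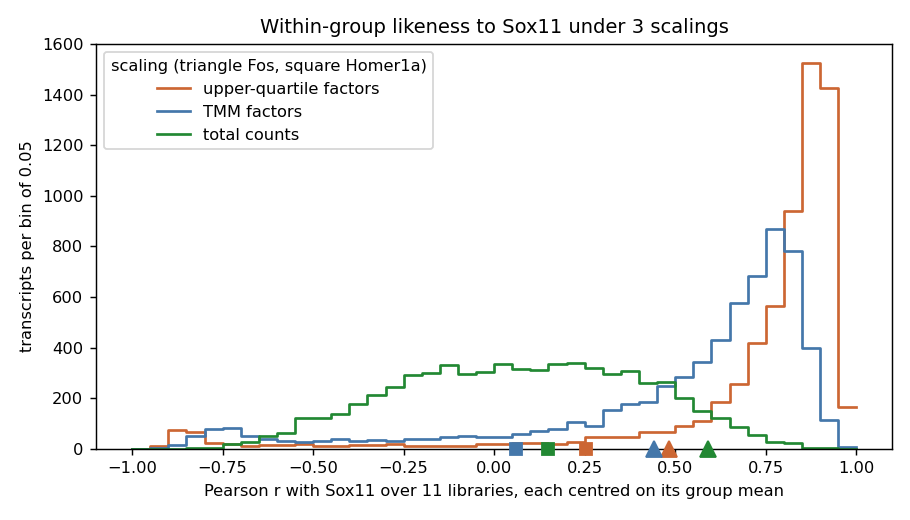
Number of transcripts (vertical axis, bins of 0.05) by their Pearson correlation with Sox11 over the 11 libraries after centring on group means, for 3 scalings. The median moves from 0.845 with upper-quartile factors to 0.0806 with total counts, and triangles and squares mark Fos and Homer1a.

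The deposited table has no gene names, and names were available mainly for transcripts with a low p in this contrast. Counts over gene lists below therefore cover few members and are not independent evidence of a direction. In the SoxC group 2 of 3 genes had a named transcript. *Sox4* (uc007pyk.1), the close relative of *Sox11*, held 25.7, 26.2, 24.0, 27.6 and 24.1 CPM in NSD replicates 2, 3, 4, 5 and B. In SD replicates 1, 2, 3, 4, 6 and D it held 24.6, 31.2, 28.3, 35.3, 32.5 and 33.1 CPM. SD replicate 1 lay inside the NSD range and the other SD libraries were above it. The log2 fold change of *Sox4* was 0.27 (standard error 0.10) and did not pass the test (edgeR FDR 0.797). It passed as higher in SD in 2 of 24 alternatives, under a minimum of 10 counts per library and with total counts.

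Among 16 other Sox genes 1 was named, *Sox1*, a factor of neural progenitors and of some inhibitory neurons. It averaged 10.3 ± 5.31 CPM in NSD (n = 5) and 3.69 ± 2.67 CPM in SD (n = 6), with overlapping groups. Its log2 fold change of -1.49 (standard error 0.35) did not pass the test (edgeR FDR 0.220). Of the 7 SoxC targets and partners only *Pou3f3*, a POU-domain factor, was named, at 155.0 ± 13.0 CPM in NSD and 171.3 ± 18.9 CPM in SD. Its log2 fold change was 0.14, and the groups overlapped.

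Markers of immature granule neurons, the cells for which Sox11 is best known, were named for 3 of 16 genes. None of the 3 passed the test in either direction, and in 6 of 24 alternatives 1 did, *Sox4* as higher in 2 and *Igfbpl1* as lower in 4. *Igfbpl1* had a log2 fold change of -1.35 (2.07 ± 0.91 CPM in NSD, 0.82 ± 0.48 CPM in SD). It was highest in NSD replicate 4 (3.22 CPM) and NSD replicate B (2.87 CPM) and, within SD, in replicate 2 (1.78 CPM), the libraries in which the inhibitory neuron markers described further on were also highest in their group. *Marcksl1*, a relative of the actin-regulating protein MARCKS, had one of -0.17 and was at 176.5 ± 23.4 CPM in NSD and 157.2 ± 27.4 CPM in SD, and its value was -0.09 without SD replicate 1 and -0.11 without NSD replicate 3. *Sox4*, at 0.27, was the only one of the 3 with a value above 0. The mature granule markers named were 2 of 8. The desmosome gene *Dsp* had a log2 fold change of 0.23 and the kinase gene *Plk5* one of -0.44, and neither passed the test. With so few named members, neither the cell type nor the stage of the cells that carried the *Sox11* reads could be told from these lists.

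Among 28 activity-regulated genes 16 were named, with 18 transcripts. Of these transcripts 1 passed the test, *Homer1a*, which rose, against 0.0439% of all transcripts called higher. *Homer1a* lost its call without NSD replicate 4 or B, and without SD replicate 1, 6 of the 18 passed as higher, where 62 of all 29599 transcripts did. The median log2 fold change of the 18 was 0.35, with 15 values above 0 and 3 below. Names were available mainly for transcripts with a low p in this contrast. The calls, median and signs of the 18 are therefore not evidence for the list as a whole. *Arc*, whose product acts at synapses, was at 0.72 (standard error 0.19), *Trib1* at 0.60 and *Dusp1*, a MAP kinase phosphatase gene, at 0.53. None of these 3 passed the test. *Sox11* at 0.66 was below *Fos*, *Homer1a* and *Arc* and above the other named members. A longer *Homer1* transcript (uc007rlc.3) was at 0.11 (25.7 ± 2.72 CPM in NSD, 27.7 ± 3.68 CPM in SD) beside 0.78 for *Homer1a*, and its value was 0.07 without NSD replicate 2 or SD replicate 2 and 0.06 without SD replicate 4. *Bdnf* was at -0.25 and the transcript uc007jpf.1 of the clock gene *Per1* at -0.64, with every SD library of the latter below every NSD library.

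**Figure D5:**
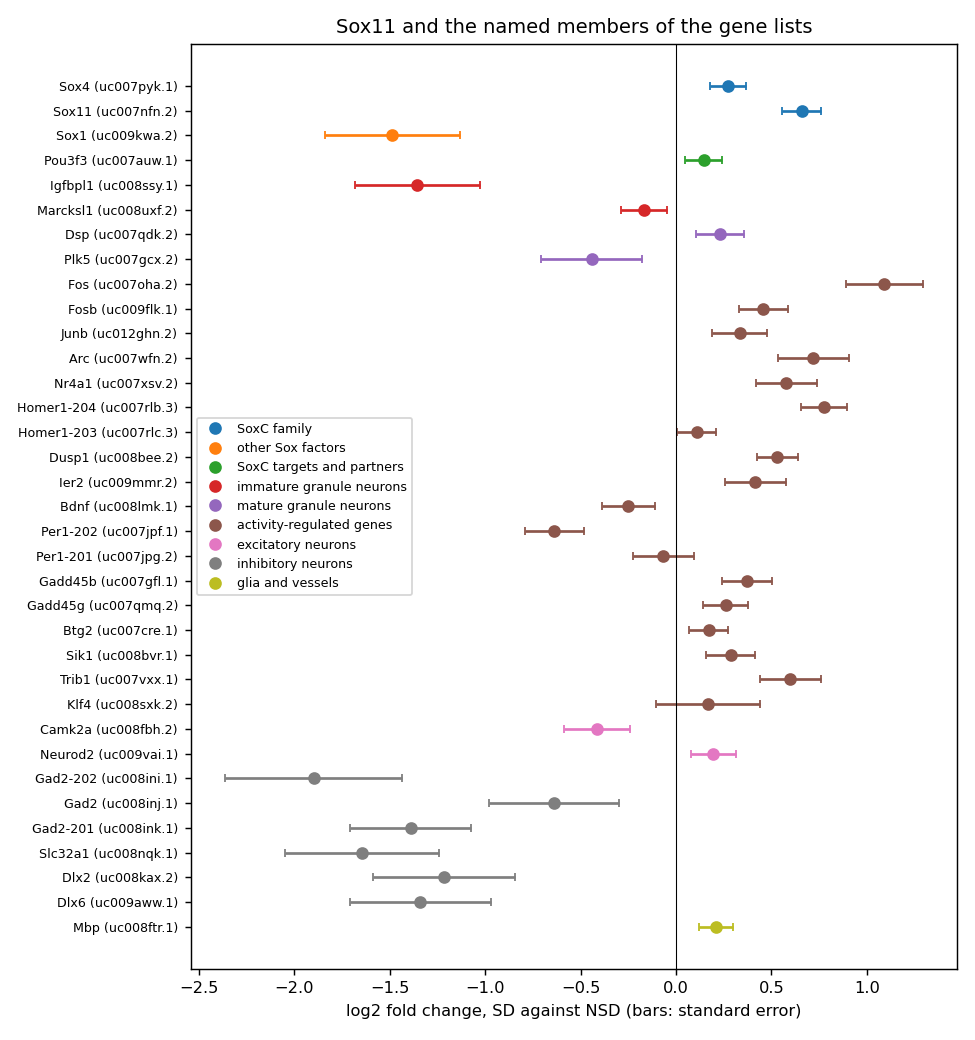
Log2 fold change of SD against NSD (horizontal axis) with its standard error for Sox11 and the named transcripts of the gene lists, coloured by list. Sox11 is at 0.66 with 3 activity-regulated transcripts to its right, and the 6 transcripts of inhibitory neuron genes are all below 0.

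Markers of other cells varied between libraries, in part along the groups. Of 12 inhibitory neuron genes 4 were named (*Gad2*, *Slc32a1*, *Dlx2* and *Dlx6*, with 6 transcripts), and none of the 6 was at 0 in any library. Their log2 fold changes ran from -1.90 to -0.64 and none passed the test. Their summed level was 23.2, 49.5, 89.7, 41.01 and 104.3 CPM in NSD replicates 2, 3, 4, 5 and B. It was 20.1, 48.5, 15.6, 17.4, 18.4 and 20.4 CPM in SD replicates 1, 2, 3, 4, 6 and D. SD replicate 2, the library with the highest *Sox11*, was also the SD library with the most inhibitory transcripts, whereas NSD replicates 4 and B, the NSD libraries with the most, were among the 3 lowest for *Sox11* with upper-quartile factors. With totals alone NSD replicate 4 was instead the highest NSD library for *Sox11* (74.2 CPM) and NSD replicate B the lowest (67.6 CPM). *Sox1* was highest in the same libraries, with 17.4 CPM in NSD replicate 4, 14.3 in NSD replicate B and 9.05 in SD replicate 2. Without SD replicate 2 the log2 fold change of *Sox11* was 0.61, and *Sox1*, *Igfbpl1* and 2 of the 6 inhibitory transcripts passed the test as lower in SD, where 12 of all 29599 transcripts did. Without NSD replicate 2, 1 of the 6 did, and 6 of all 29599. The part of inhibitory neuron RNA in the *Sox11* difference was not tested.

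The excitatory neuron markers named were 2 of 6. *Neurod2*, a differentiation factor kept in mature excitatory neurons, was abundant in every library (336.0 ± 37.7 CPM in NSD, 385.0 ± 63.1 CPM in SD). A minor transcript of *Camk2a* (uc008fbh.2) was at 2.51 ± 0.17 CPM in NSD and 1.89 ± 0.34 CPM in SD and says little about the gene. Its log2 fold change was -0.41, with every SD library below every NSD library, though the highest SD (2.315 CPM) and lowest NSD (2.317 CPM) libraries were nearly equal, and it did not pass the test. Of 14 glial and vascular genes only *Mbp*, which encodes a myelin protein, was named, at 180.3 ± 12.4 CPM in NSD and 208.5 ± 19.6 CPM in SD. Its log2 fold change was 0.21 and the groups overlapped. It did not pass the test but passed as higher in SD in 3 of 24 alternatives, with filterByExpr, under a minimum of 10 counts per library and with total counts. The part of glial RNA in the *Sox11* difference was not tested.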

How the data were processed

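Ribosome-associated RNA was isolated from the hippocampus of CaMKIIα-Cre:RiboTag mice and sequenced from ribosomal RNA-depleted stranded libraries. The authors trimmed reads with Trimmomatic 0.36, aligned them to mm10 with STAR 2.7.5 and deposited raw counts per UCSC transcript from HTSeq-count (intersection-nonempty mode). Its strand setting is not given in the sources used here. The deposited counts are not normalized and hold 63244 transcripts and 5 tallies of uncounted reads, which were left out.

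The 29599 transcripts that had 1 count or more in 5 or more libraries were tested with edgeR 4.0.16 in R 4.3.3 (upper-quartile factors, two-sided quasi-likelihood test, Benjamini-Hochberg FDR 0.05). The factors also scaled CPM, with a prior count of 2 added for log2 CPM. Alternatives were TMM, DESeq2 1.42.0, the likelihood ratio test, limma 3.58.1 voom, other filters, covariates, a replicate block and left-out libraries. Correlations used exact permutation tests over pairings of libraries. Calculations of spread treat libraries as replicates, each a pool of 2 mice.

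The statistics listed for transcripts in the supplementary tables of the study were used only as a key to name 2257 transcripts (2112 genes) by a unique match within a relative tolerance of 6e-06. All transcripts named from the main table had p of at most 0.0986 in the key fit. Of 10 named transcripts nearest to *Sox11* in the table, 10 lay on its chromosome. Promoters came from RefSeq (GRCm38.p6). The tests were tested on simulated data. Figures were drawn with matplotlib 3.10.9.

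Named are *Sox11*, the references *Fos* and *Homer1a*, members of gene lists with a named transcript, and the 5 named transcripts most like *Sox11* by each measure of likeness, of which 1 is not reported here. *Nr4a1* and the abundant transcripts ranked beside *Sox11* were named after their values were seen. *Sox11*, the references and the lists were chosen with earlier results of these data known.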

Additional observations from a re-analysis of the deposited data

Results flagged for a closer look

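Each group of 5 or 6 libraries was searched for a single library far from the others, and 9 of 96 groups tested held one, where chance flags about 1 in 20. The groups share libraries and are not independent, so this count is not read as an excess over chance. SD replicate 2, the library with the highest *Sox11*, stood apart as the highest SD library for 6 named transcripts. These were *Sox1* (9.05 CPM, the other SD libraries 2.12 to 3.33), *Igfbpl1* (1.78, others 0.502 to 0.755), *Fosb* (16.6, others 10.8 to 12.9), the *Gad2* transcripts uc008ini.1 (0.888, others 0.143 to 0.402), uc008ink.1 (42.7, others 13.5 to 18.3) and *Slc32a1* (2.66, others 0.540 to 0.815). *Sox11* itself was not far apart in that library. SD replicate 1, the SD library with the lowest *Sox11*, was low for *Dusp1* (22.0 CPM, others 28.3 to 31.3). NSD replicate 2 stood apart by its ambiguous reads (37.2%, other NSD libraries 47.6% to 51.7%) and by reads that did not align to a single place (12.3%, others 5.90% to 6.09%).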

How the results depend on the processing

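The log2 fold change of *Sox11* stayed above 0 in all 24 alternatives, between 0.60 and 0.76, and between 0.61 (without SD replicate 2) and 0.72 (without SD replicate 1) when 1 library was left out. Its correlation with *Fos* within SD ran from 0.043 to 0.860 when 1 library was left out. That with *Homer1a* ran from -0.350 (without SD replicate 2) to 0.406 and was -0.068 without the 2 farthest libraries. The cause was not tested.

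The number of transcripts past FDR 0.05 was 15. It was 62 with TMM factors, 133 with DESeq2, 65 with the likelihood ratio test, 58 with limma voom with quality weights, 191 with filterByExpr, 33 with at least 1 count in 1 library and 311 with at least 10 counts in every library. It was 8 with the label series as a covariate, 271 with total counts, and 167 (85 higher, 82 lower) with the share of reads outside transcripts as a covariate, the last 2 added after the data were seen. With the numbered libraries alone edgeR's quasi-likelihood test called 0, with 887 transcripts at an unadjusted p under 0.05. Leaving out 1 library gave 1 (without NSD replicate B) to 69 (without SD replicate 1), with 2 without NSD replicate 4, 3 without SD replicate D, 7 without SD replicate 6 and 9 without SD replicate 3.

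SD and NSD share replicate numbers 2, 3 and 4. Deviations of same-numbered libraries from their group means, with upper-quartile factors, correlated at -0.260, -0.287 and -0.356. These values also carry library scaling and were not set against other pairs, so they cannot show whether the numbers pair the libraries. A replicate block over these 6 libraries called 6 transcripts, and the same 6 libraries without pairing called 3. *Sox11* was at 0.76 with the block (standard error 0.22) and 0.76 without it.

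Of 1052 values recomputed for 44 other results, 1042 kept their direction and moved by less than the spread between libraries, 7 moved further and 3 changed sign. The *Per1* transcript uc007jpg.2 (-0.07) was at 0.051 without NSD replicate B and 0.0014 without SD replicate 3, within a range of -0.121 to 0.051 when 1 library was left out, and *Klf4* (0.17) at -0.038 with the replicate block. Without 1 library *Klf4* ran from 0.066 (without SD replicate D) to 0.318 (without SD replicate 4), with 0.104 without NSD replicate 3 and 0.255 without NSD replicate 5. The 7 that moved came from the 6 libraries with shared numbers. With the replicate block and without pairing, *Dsp* (0.23) was at 0.48 in both, *Homer1a* (0.78) at 1.03 in both, and the longer *Homer1* transcript (0.11) at 0.28 in both, and the *Gad2* transcript uc008ini.1 (-1.90) was at -0.85 with the block.

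Across alternatives, between 0 and 7 activity-regulated transcripts (7 with DESeq2, which called 94 of 29599 transcripts higher) passed as higher and at most 1 as lower. At most 4 inhibitory neuron transcripts passed as lower, with the share of reads outside transcripts as a covariate. The counts in the report are 1, 0 and 0. The *Homer1a* call held in 21 of 24 alternatives and that of *Fos*, absent at first, appeared in 13.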
